A study of Mus musculus with 39 samples.

Results

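The 10 genes described here make proteins of heart muscle cells and were read in the lungs of mice with and without Cd177, which encodes a surface protein of neutrophils. They are Myh6, Tnnt2, Tnni3, Actc1, Myl4, Myl7, Nppa, Ryr2, Ttn and Sln, chosen by symbol from the 55357 genes of the lung table. RNA sequencing of lung gave 20 libraries in 4 groups of 5, all of C57BL/6N background. Wild-type mice (WT) had a sham operation (WT sham) or acute pancreatitis (WT AP), and Cd177 knock-out mice (KO) had the same operations (KO sham and KO AP). The 19 colon libraries of the same design served as an outgroup. How pancreatitis was induced, and whether the libraries of a group came from separate animals, is not given in the sources used here, so p-values measure the spread between libraries, which may be technical. Libraries are named below by group and replicate number, for example KO AP 3.

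A heart muscle cell contracts when calcium from its internal store frees the troponin switch on thin actin filaments, which lets myosin heads pull on them. Myosin comes in forms that differ between atrium, ventricle and skeletal muscle, and troponin in forms that differ between heart and skeletal muscle. The mix of forms therefore marks the kind of muscle. In mice a sleeve of atrial-type heart muscle runs from the left atrium along the pulmonary veins into the lung, and a dissected lung can also carry tissue from its surroundings. A level in bulk lung cannot tell fewer heart muscle cells from less RNA per cell.

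Heart muscle RNA was found in every lung library. Leaving aside KO AP 3, which stood apart, the 10 genes summed to between 65.4 and 578 FPKM, a unit of fragments scaled to transcript length and library total. Their sum was 125 to 578 FPKM in WT sham, 225 to 556 in WT AP and 65.4 to 576 in KO sham. In KO AP it was 137 to 532 FPKM in 4 libraries and 3520 in KO AP 3. Most of the lowest sum, in KO sham 4, came from Actc1 at 31.3 FPKM and Tnni3 at 16.9. In colon the sum was between 6.88 and 29.5 FPKM, below every lung library. By gene, Myh6, Tnni3, Actc1, Myl4 and Ttn exceeded the highest colon library in all 20 lung libraries. Tnnt2, Myl7 and Sln did so in 18, Nppa in 16 and Ryr2 in 15.

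The kind of muscle was read from marker lists. Of 20 other sarcomere genes of heart muscle, 17 reached 1 FPKM in a WT sham library, as did 8 of 9 atrial genes. The exception was Bmp10, an atrial growth factor, which was at most 0.0264 FPKM in any lung library. Of the 8 atrial genes Gja5, Dkk3 and Nr2f2 are also expressed by other lung cells. Myl2, the regulatory light chain of the ventricle, was at most 0.339 FPKM in the 10 WT libraries, where its atrial counterpart Myl7 was 14.6 to 97.7 FPKM. Irx4, a ventricular transcription factor, was listed at 0 in 19 of 20 libraries and at 0.0183 FPKM in WT AP 1. Among 15 skeletal muscle genes, Acta1 was at most 1.61 FPKM and Myh4 was listed at 0 in every library but KO AP 3. Not every such marker was absent: 5 of the 15 skeletal muscle genes and 3 of 6 ventricular genes reached 1 FPKM in a WT sham library. In WT lung Myh7, a heavy chain of ventricle and slow muscle, was 5.33 to 9.79 FPKM and Tnnt3, a fast skeletal troponin, 2.1 to 6.06.

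Cd177 was 2.01 ± 0.926 FPKM in WT sham and 3.19 ± 0.926 in WT AP (SD, n = 5 each), and was listed at 0 in all 10 KO libraries. Library totals recovered from the files were 57.9 to 71.2 M reads in WT lung and 77.0 to 95.4 M in KO lung, so depth separated the genotypes as fully as the genotype label did. KO sham 4, KO sham 5 and KO AP 3 had a mean correlation under 0.94 with the other libraries of their group. The genotypes also differed by transcript length. In KO against WT sham the median log2 difference was 0.47 for the 2860 genes with a longest transcript of 1000 to 2000 bases and -0.57 for the 714 genes above 8000 bases. In AP the same medians were 0.37 and -0.44. Any effect of Cd177 and these differences between the WT and KO libraries cannot be told apart by this design.

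Promoter sequence is shown for 3 members because between them they carry CArG box and GATAA matches, and because Actc1 and Nppa moved in opposite directions below. The bases run from 130 to 31 before the RefSeq start, on the GRCm38.p6 build, and capitals mark a CArG box, bound by serum response factor, or GATAA on either strand, the core bound by GATA factors.
Actc1, chr2:114052906-114053005, minus strand: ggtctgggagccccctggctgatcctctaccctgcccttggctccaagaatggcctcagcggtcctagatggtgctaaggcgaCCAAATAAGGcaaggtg
Myl7, chr11:5898813-5898912, minus strand: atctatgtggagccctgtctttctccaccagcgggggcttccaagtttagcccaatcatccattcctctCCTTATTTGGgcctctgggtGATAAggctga
Nppa, chr4:148000592-148000691, plus strand: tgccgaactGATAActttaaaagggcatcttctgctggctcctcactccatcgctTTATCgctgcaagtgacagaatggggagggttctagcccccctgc
The annotation places all 3 stretches before the main transcript's first exon, and that of Actc1 also lies in an intron of a longer transcript. Over the 250 bases before the start, a CArG box was found for 2 of the 9 members in the table, Actc1 and Myl7, and in 1.47% of all 32851 promoter windows. GATAA was found for 3 members, Tnnt2, Myl7 and Nppa, and in 22.6% of windows. A binding site for MEF2, a muscle transcription factor, was found by its consensus for Ttn alone and in 2.92% of windows. In the stretches shown no motif overlapped another. These matches are letters in a window and were not tested for binding.

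The thick filament was represented by Myh6, Myl4, Myl7 and Ttn. Myh6, the alpha heavy chain of heart myosin and its motor, was 99.0, 33.0, 33.6, 17.2 and 32.5 FPKM in WT sham 1 to 5 and 87.7, 52.0, 32.6, 53.0 and 47.0 in WT AP 1 to 5. It was 5.97, 85.9, 3.26, 2.29 and 80.9 FPKM in KO sham 1 to 5, and 31.5, 75.1, 424, 32.5 and 8.16 in KO AP 1 to 5. In KO sham, replicates 2 and 5 lay near the highest WT libraries while replicates 1, 3 and 4 lay below all 10 WT libraries. KO AP 3 exceeded the next highest library of its group, at 75.1 FPKM, by more than the whole range of the rest. Reads of Myh6 and of the near-identical Myh7, the beta heavy chain, may have been split between them in the authors' assignment.

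Myl4, the atrial essential light chain, was 81.0, 30.2, 30.1, 15.8 and 31.7 FPKM in WT sham and 79.2, 50.4, 34.3, 63.5 and 40.6 in WT AP. In KO sham it was 4.17, 65.4, 6.48, 3.74 and 85.5 FPKM, and in KO AP 28.0, 40.1, 517, 20.9 and 4.21. KO sham again fell into 2 high and 3 low libraries, and the same 3 were low.

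Myl7, the atrial regulatory light chain, was 97.7, 32.4, 26.5, 14.6 and 39.1 FPKM in WT sham and 96.8, 64.3, 35, 85.8 and 49.3 in WT AP. KO sham libraries had 4.73, 124, 11.1, 5.92 and 130 FPKM, and KO AP libraries had 63.2, 54.0, 544, 37.8 and 7. Its lowest level, in KO sham 1, still rested on 255 reads. Ttn, the giant spring that spans the sarcomere, was at most 0.669 FPKM in WT and 0.270 in the other KO libraries, against 4.01 in KO AP 3. Only KO AP 3 reached 1 FPKM, so Ttn was not tested.

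The thin filament was represented by Tnnt2, Tnni3 and Actc1. Tnnt2, the troponin that ties the complex to tropomyosin, was 126, 56.1, 56.3, 31.2 and 65.5 FPKM in WT sham and 127, 76.7, 50.2, 122 and 72.3 in WT AP. In KO sham it was 24.4, 131, 19, 4.76 and 95.4 FPKM, and in KO AP 74.4, 139, 771, 68.0 and 23.9. Its pattern over the libraries followed that of Myh6.

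Tnni3, the inhibitory troponin of heart muscle, was 63.1, 24.6, 27.2, 15.4 and 28.7 FPKM in WT sham and 57.4, 34.7, 29.1, 76.8 and 33.8 in WT AP. Its levels in KO sham were 49.9, 100, 21.9, 16.9 and 91.5 FPKM, and in KO AP 69.7, 118, 520, 86.8 and 36.9. The 3 KO sham libraries low in Myh6 had Tnni3 at 16.9 to 49.9 FPKM, within the WT sham range of 15.4 to 63.1.

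Actc1, the alpha actin of heart muscle, was 49.9, 22.8, 25.6, 24.8 and 27.6 FPKM in WT sham and 44.2, 45.9, 30.8, 46.1 and 24.6 in WT AP. KO sham libraries had 51.4, 52.2, 41.1, 31.3 and 55.3 FPKM, and KO AP libraries had 59.3, 93.1, 470, 77.5 and 55.9. Every KO AP library lay above every WT AP library, and the sham groups overlapped. The share of all genes that separate as fully was not counted. Between KO and WT with AP, 55.8% of all genes tested passed a limma adjusted p of 0.05. Actc1 varied less than Myh6 in KO sham, at 46.3 ± 9.92 FPKM (SD, n = 5), where Myh6 was 35.7 ± 43.6. Actins share most of their coding sequence, so reads of Actc1 could have been exchanged with Acta1, Acta2 or Actg2.

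Calcium handling was represented by Ryr2 and Sln. Ryr2, the channel that releases calcium from the internal store, was 3.42, 0.899, 1.01, 0.808 and 1.43 FPKM in WT sham and 3.08, 1.53, 1.06, 1.55 and 1.41 in WT AP. In KO sham it was 0.494, 0.802, 0.360, 0.362 and 0.334 FPKM, and in KO AP 1.06, 1.34, 3.6, 1.34 and 0.406. All 5 KO sham libraries lay below all 5 WT sham libraries, with 0.802 against 0.808 FPKM at the nearest. How many genes separate as fully was not counted. After sham, 58.8% of all genes tested passed a limma adjusted p of 0.05 between KO and WT.

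Sln, sarcolipin, an inhibitor of the calcium pump that is high in atrium, was 17.2, 6.87, 7.21, 4.05 and 6.61 FPKM in WT sham and 19, 8.38, 6.12, 15.4 and 10.6 in WT AP. Its levels in KO sham were 0.166, 14.6, 0.785, 0 and 10.1 FPKM, and in KO AP 10.9, 11, 220, 4.24 and 0.793. KO sham 4 had 0 reads of Sln, which allows a level of up to 0.0257 FPKM at a floor of 3 reads, counting error only. KO AP 3 had 27679 reads.

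Nppa, the precursor of atrial natriuretic peptide, a hormone that atrial cells release on stretch, was 41.0, 3.83, 3.48, 1.23 and 3.52 FPKM in WT sham and 40.9, 20.2, 5.30, 26.0 and 17.2 in WT AP. In KO sham it was 0.582, 1.59, 0.0493, 0.0392 and 1.07 FPKM, and in KO AP 0.173, 1.1, 45.8, 0.659 and 0.0623. Without KO AP 3, 8 of 9 KO libraries lay below all 10 WT libraries, and KO sham 2, at 1.59 FPKM, lay above WT sham 4 alone. The share of all genes separated to this extent was not counted. In reads, the 9 KO libraries had 3 to 126 and the WT libraries 68 to 2526. KO AP 3 had 3780 reads and the highest Nppa level of all 20 libraries.

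**Figure D1:**
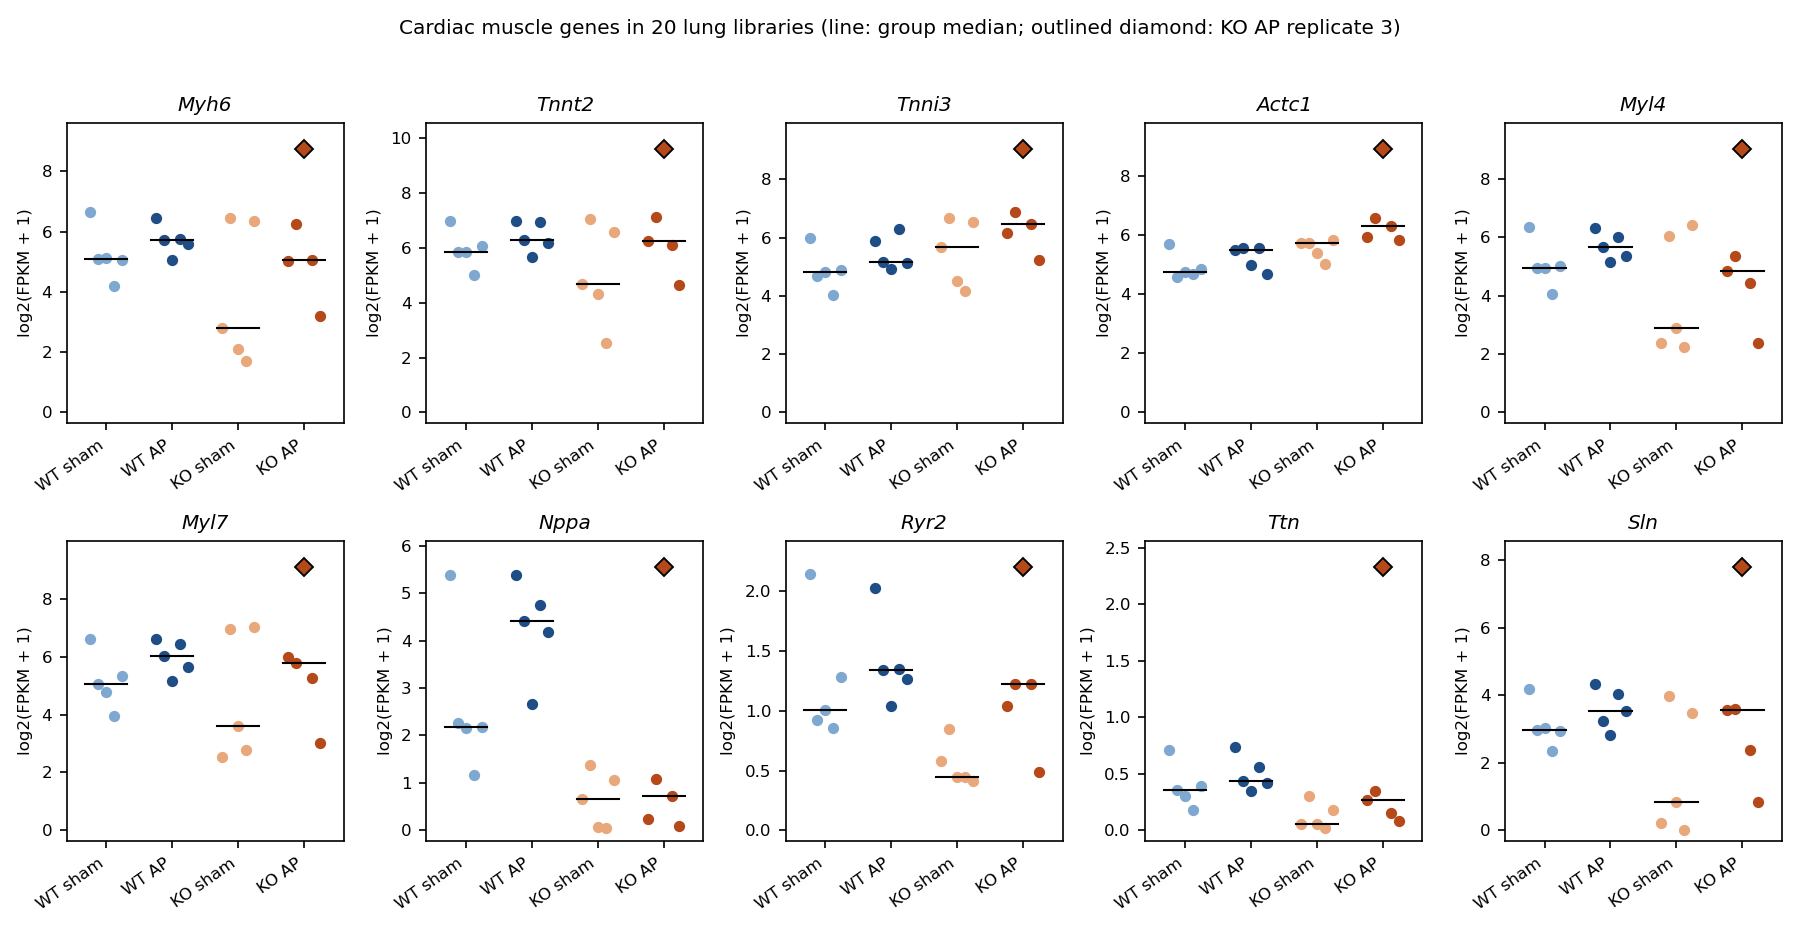
Level of each of the 10 genes as log2(FPKM + 1) in 20 lung libraries, with 5 points per group, a line at the group median and an outlined diamond for KO AP 3. KO AP 3 is the top point in all 10 panels, KO sham splits into high and low libraries for Myh6, Myl4, Myl7, Tnnt2 and Sln, and Nppa is low in all KO libraries but KO AP 3.

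The order of the mean levels per length differed between the genotypes. In WT lung Tnnt2 was highest at 78.3 ± 34.4 FPKM (SD, n = 10), followed by Myl7 at 54.1 ± 30.3, Myh6 at 48.8 ± 26.0, Myl4 at 45.7 ± 22.2, Tnni3 at 39.1 ± 19.7 and Actc1 at 34.2 ± 10.9. In KO lung without KO AP 3, Tnni3 was at 65.8 ± 36.1 FPKM (SD, n = 9), Tnnt2 at 64.4 ± 49.9, Actc1 at 57.5 ± 18.4, Myl7 at 48.6 ± 49.4, Myh6 at 36.2 ± 35.3 and Myl4 at 28.7 ± 29.8. In neither genotype did neighbours among these 6 differ by more than their spread. Nppa at 16.3 ± 15.5 and Sln at 10.2 ± 5.22 FPKM came next in WT, above Ryr2 at 1.62 ± 0.902 and Ttn at 0.369 ± 0.172. In KO, Sln was at 5.84 ± 5.77 FPKM, and Nppa, at 0.592 ± 0.564, lay beside Ryr2 at 0.723 ± 0.426, with Ttn lowest at 0.121 ± 0.0939.

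In WT lung the genes moved together from library to library. WT sham 1 was the highest WT library for 6 members, WT AP 1 for 3 and WT AP 4 for Tnni3. WT sham 4 was the lowest WT library for 9 of 10, Actc1 being the exception. Adipocyte genes were also high in WT sham 1 and WT AP 1, with 8 genes summing to 151 and 145 FPKM against 19 to 137 in the other WT libraries. Their part in the result was not tested.

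The first comparison asked what pancreatitis did to these genes in WT lung, using limma on log2(FPKM + 1) with Benjamini-Hochberg adjustment over all 15978 genes tested. None of the 9 members tested passed an adjusted p of 0.05, and 0.0814% of all genes tested did, 13 in number (0.0250% higher and 0.0563% lower), with 1066 genes at an unadjusted p under 0.05. All 9 estimates were above 0, with a median of 0.50 beside -0.01 for all genes. The 6 adipocyte genes tested were also all above 0, with a median of 0.82 and none past the threshold, and their part in the members' estimates was not tested. The largest was Nppa, at 1.64 ± 0.86 (SE, limma adjusted p = 0.795), from means of 10.6 ± 17.0 FPKM in WT sham and 21.9 ± 13.0 in WT AP (SD, n = 5 each). Weighting libraries by their quality in limma gave Nppa 1.86 with an adjusted p of 0.0349, the only member past the threshold in any alternative for this comparison.

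In KO lung none of the 9 members passed between AP and sham either, beside 0.0125% of all genes, 2 in number, with 2234 at an unadjusted p under 0.05. All 9 estimates were above 0, with a median of 1.24 beside -0.02 for all genes. Sln had 1.94 ± 0.95 (SE, limma adjusted p = 0.369) and Myh6 1.77 ± 0.93 (limma adjusted p = 0.394). These sizes rested in part on KO AP 3: without it Sln was 0.90, Myh6 1.0 and Nppa -0.11 in place of 0.89. The tested members other than Nppa stayed above 0 without it, from 0.26 for Myl4 to 1.0 for Myh6 and Tnnt2. Leaving out 1 other library brought Sln to as much as 2.63 and Myh6 to as much as 2.41. No member passed in any of these fits. The AP responses of the genotypes did not differ past the threshold for any member, nor for any gene tested (0% called, with 1384 genes at an unadjusted p under 0.05).

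Between KO and WT with AP, Actc1 was higher and Nppa lower in KO. Of the 9 members tested these 2 passed, beside 55.8% of all genes tested, 27.6% higher and 28.1% lower. Actc1 differed by 1.44 ± 0.41 on the log2 scale (SE, limma adjusted p = 0.0061), and Nppa by -2.74 ± 0.86 (limma adjusted p = 0.0114). Without KO AP 3 the difference of Actc1 was 0.89 (limma adjusted p = 0.00393), from 71.4 ± 17.3 FPKM in 4 KO libraries and 38.3 ± 9.96 in 5 WT libraries (SD). Nppa without it was -3.75 (limma adjusted p = 8.95e-05), from 0.499 ± 0.478 FPKM in 4 KO and 21.9 ± 13.0 in 5 WT libraries. Tnni3 stood at 1.28 ± 0.58 (limma adjusted p = 0.0669) and passed only with KO AP 5 (0.0208) or WT AP 4 (0.0479) left out or with weighted libraries (0.0452). Without KO AP 3 it was 0.72. The other 6 lay between -0.49 for Myl4 and 0.32 for Tnnt2. Without KO AP 3 all 6 were below 0, from -0.39 for Tnnt2 to -1.44 for Myl4, and none passed.

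Between KO and WT after sham, Ryr2 was lower in KO by -0.70 ± 0.27 (SE, limma adjusted p = 0.0331), from 0.470 ± 0.196 against 1.51 ± 1.09 FPKM (SD, n = 5 each). It was the only member of 9 to pass, beside 58.8% of all genes tested, 28.8% higher and 30.0% lower. This call was lost when WT sham 1, WT sham 5, KO sham 3, KO sham 4 or KO sham 5 was left out, with limma adjusted p between 0.0542 and 0.117. It was also lost with no filter on low values (0.079), with weighted libraries (0.155) and without the 3 libraries of low correlation (0.055), as limma adjusted p. Nppa stood at -1.99 ± 0.86 (limma adjusted p = 0.0543), and leaving out KO AP 3, which narrows the shared spread, brought it to 0.00752 and Actc1, at 0.63, to 0.0204. With weighted libraries Tnni3, at 1.12 (limma adjusted p = 0.0345), and Actc1, at 0.81 (0.0152), were instead the members that passed, both higher in KO. Of the 9 estimates 7 were below 0, with Actc1 at 0.63 ± 0.41 and Tnni3 at 0.62 ± 0.58 the exceptions.

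**Figure D2:**
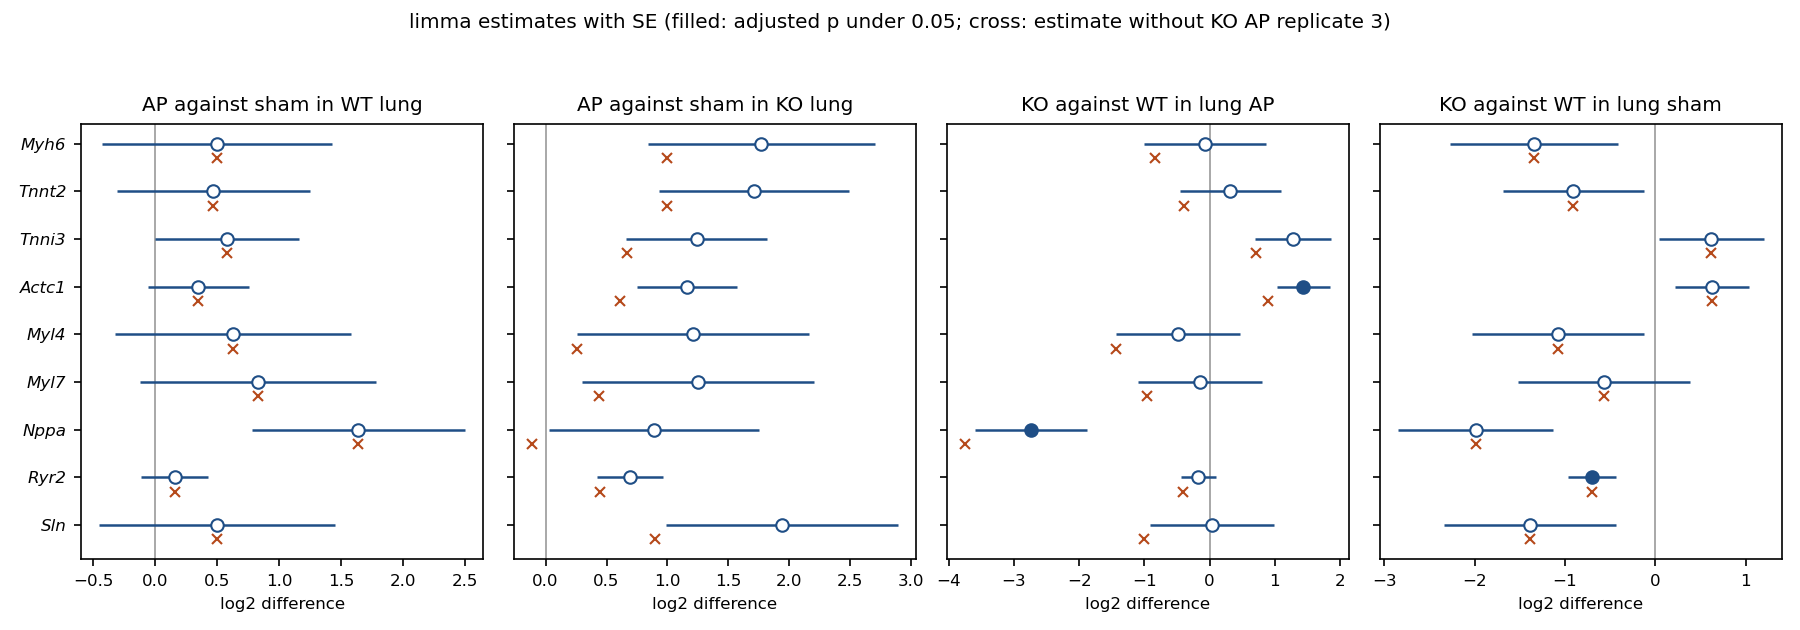
Estimated log2 difference for the 9 tested genes in 4 comparisons, with bars for the SE, filled points for an adjusted p under 0.05 and crosses for the estimate without KO AP 3. In KO against WT, Actc1 and Tnni3 lie right of 0 with and without KO AP 3 and Nppa lies left of it, while in KO lung the AP estimates move toward 0 without KO AP 3.

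Ratios within a library do not depend on how much heart muscle it held under 2 conditions. The heart muscle cells must be alike, and no other lung cells may express either gene. Neither condition was tested, and in KO sham 4 Actc1 was 31.3 FPKM where Myh6 was 2.29. The ratios below also differed between WT and KO libraries. They were examined after the values were seen and carry no test. Between KO and WT, 55.8% of all genes tested passed the threshold with AP and 58.8% after sham. The share of all gene pairs whose ratio separates WT from KO was not counted. Tnni3 over Tnnt2 was 0.439 to 0.630 in WT and 0.675 to 3.56 in KO, with no overlap over 20 libraries. It rose no higher than 0.502 in WT sham, where KO sham began at 0.765. Tnni3 over Myh6 was 0.637 to 1.45 in WT and 1.13 to 8.36 in KO. Its highest values, 8.36, 6.71 and 7.41, were those of KO sham 1, 3 and 4, the libraries with least Myh6, and KO sham 2 and 5 had 1.17 and 1.13.

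Actc1 over Myh6 was 0.504 to 1.44 in WT and 0.608 to 13.7 in KO. KO sham 2 and 5, at 0.608 and 0.683, lay inside the WT range, and KO sham 1, 3 and 4 lay at 8.62, 12.6 and 13.7. Nppa over Myl7, 2 atrial genes, had a median of 0.227 in WT and 0.0109 in KO. Its range was 0.0842 to 0.422 in WT and 0.00274 to 0.123 in KO, where KO sham 1 (0.123) and KO AP 3 (0.0842) were highest. In WT the ratio was 0.0842 to 0.131 in 4 WT sham libraries and 0.420 in WT sham 1, against 0.151 to 0.422 in WT AP.

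Transcript length moved with genotype, as given above, and the members differ in it. The longest annotated transcript of Tnni3 is 912 bases and of Actc1 1473, against 3330 for Tnnt2, 6113 for Myh6 and 16814 for Ryr2. It is 865 bases for Nppa, 590 for Myl7 and 1318 for Sln. In KO against WT with AP, the log2 difference was -2.74 for Nppa, -0.15 for Myl7 and 0.04 for Sln. After sham it was -1.99, -0.57 and -1.39. The median of genes up to 1000 bases was 0.2 with AP and 0.37 after sham. Smooth muscle genes differed between the genotypes in both directions. Acta2, the smooth muscle actin, was 52.1 ± 13.2 FPKM in WT AP and 123 ± 28.2 in KO AP (SD, n = 5 each), whereas Myh11, the smooth muscle myosin heavy chain, was lower in KO AP by -0.79 ± 0.12 (SE, limma adjusted p = 2.15e-05). Lmod1, Smtn and Synpo2 did not pass with AP. The part of length, depth and smooth muscle in the results for Actc1, Tnni3, Nppa and the other members was not tested.

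**Figure D3:**
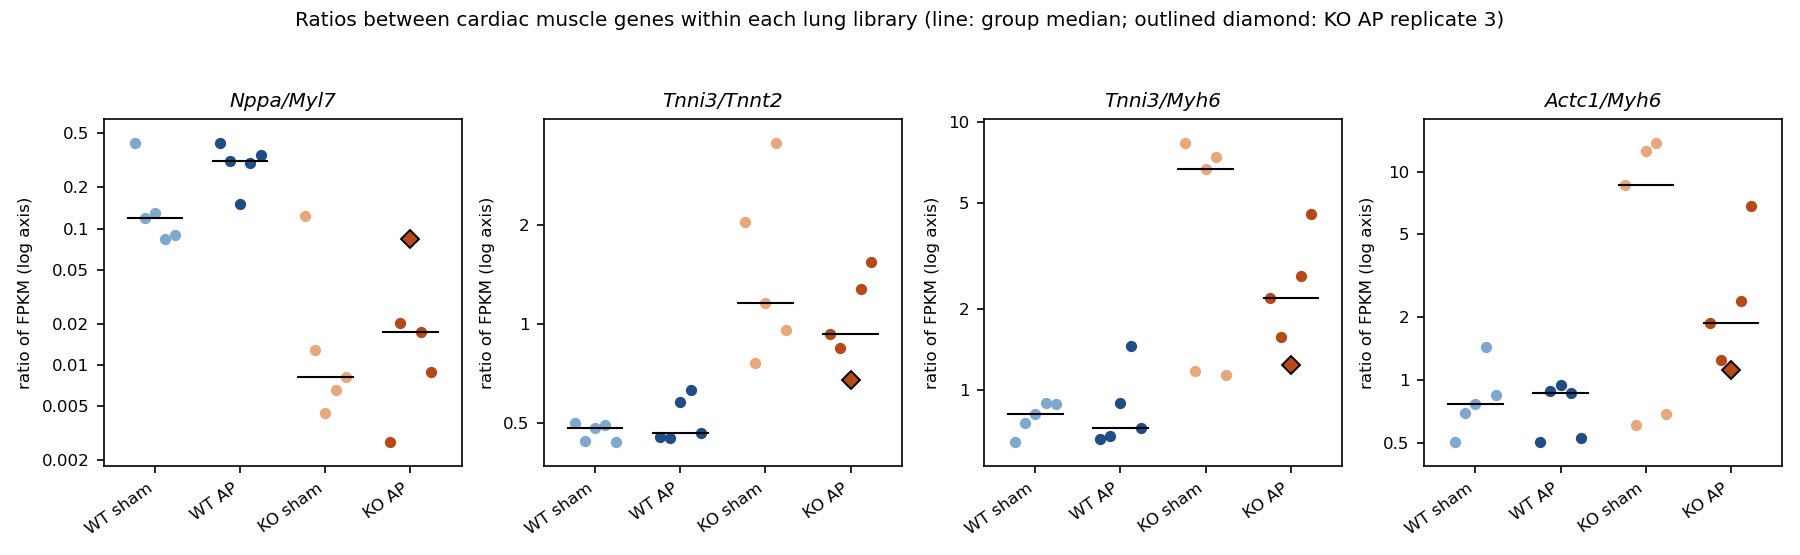
Ratio of 2 genes' FPKM within each of the 20 lung libraries on log axes, by group, with a line at the group median and an outlined diamond for KO AP 3. Nppa over Myl7 is lower in most KO libraries, Tnni3 over Tnnt2 does not overlap between WT and KO, and the 3 KO sham libraries with least Myh6 are highest for Tnni3 and Actc1 over Myh6.

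KO AP 3 held other tissue markers besides heart muscle. It was the highest library for all 10 members, beside 7.65% of all genes tested. It was also highest for all 15 skeletal muscle genes, which summed to 4844 FPKM there and to between 5.04 and 22.9 in the other libraries. Acta1, the skeletal alpha actin, was 1999 FPKM, Tnnt3 was 635, and Myh8, the perinatal myosin heavy chain, was 184. Among 8 adipocyte genes, all highest there, the sum was 2795 FPKM against 6.88 to 151 elsewhere.

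Ucp1, the uncoupling protein of brown fat, was 181 FPKM in KO AP 3 and at most 0.0911 in any other lung library. All 9 energy supply genes of striated muscle were highest there, with Ckm, muscle creatine kinase, at 564 FPKM against at most 6.89. None of 11 lung identity genes was highest there, and their sum of 43381 FPKM was near the lower end of the other libraries, 38610 to 155131. Skeletal muscle also expresses Ttn, Sln and, in part, other members, so the source of their RNA in KO AP 3 cannot be told apart from these values. Nppa and Myl7, which were 45.8 and 544 FPKM there, are atrial.

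**Figure D4:**
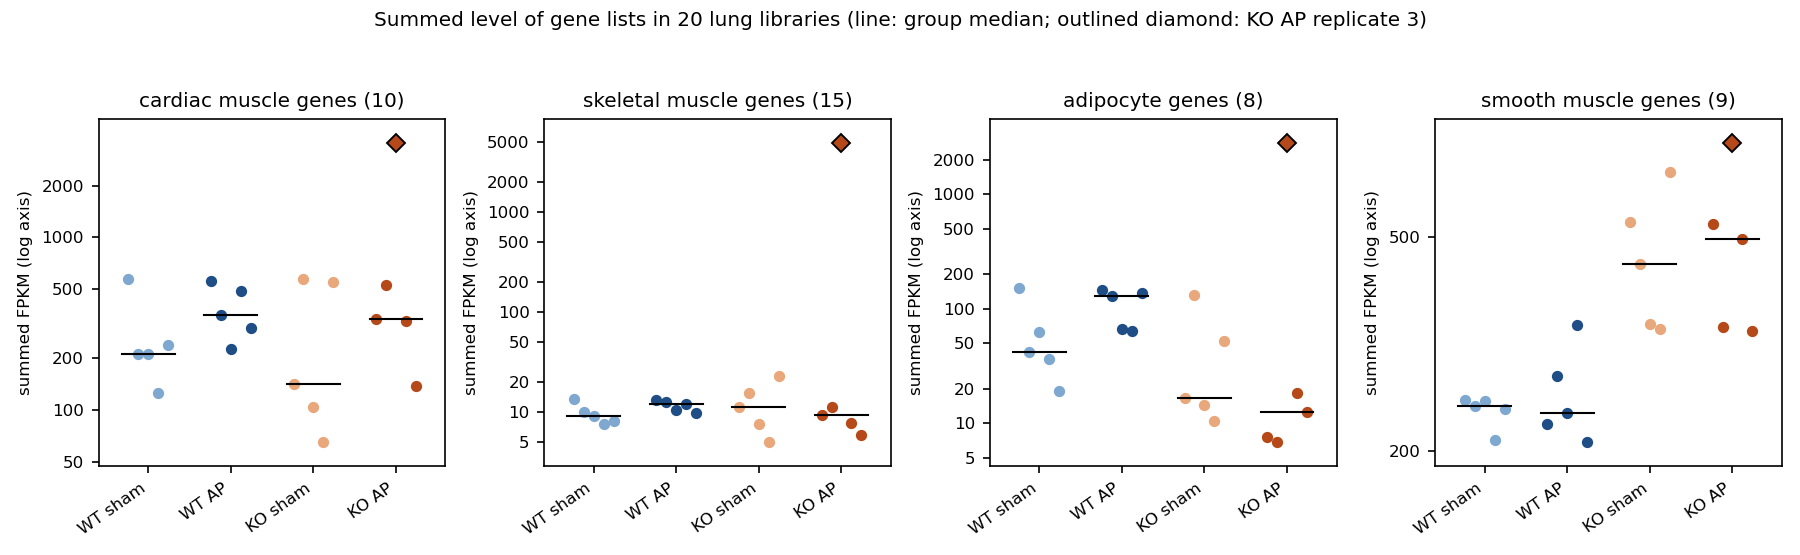
Summed FPKM of 4 gene lists in each of the 20 lung libraries on log axes, by group, with a line at the group median and an outlined diamond for KO AP 3. KO AP 3 is far above all others for cardiac, skeletal muscle and adipocyte genes, and smooth muscle genes sum to 208 to 343 FPKM in WT AP and 334 to 745 in KO AP.

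Ventricular light chains appeared in 2 other KO libraries. Myl2 was 7.72 FPKM in KO sham 1 and 39.4 in KO AP 2, and at most 0.921 in the other 18 libraries, being listed at 0 in KO AP 3. Its ratio to Myl7 was 1.63 in KO sham 1 and 0.730 in KO AP 2, and at most 0.00395 in WT. Myl3, the essential light chain of ventricle and slow skeletal muscle, was 7 FPKM in KO sham 1, 20.5 in KO AP 2 and 231 in KO AP 3, and at most 3.43 elsewhere. Its ratio to Myl4 was 1.68 in KO sham 1 and 0.511 in KO AP 2, against 0.0111 to 0.0593 in WT.

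Myh7 was 2.64 FPKM in KO sham 1 and 5.25 in KO AP 2, below the WT range of 5.33 to 9.79. This was not particular to them. KO sham 2, 3 and 4 and KO AP 1, 4 and 5 also lay below it, at 2.34 to 4.9 FPKM. KO sham 5 had 7.47 FPKM and KO AP 3 had 21.5. Acta1, a marker of skeletal muscle, was 1.24 FPKM in KO sham 1 and 1.61 in KO AP 2, and 0.306 or less in the other libraries except KO AP 3. The mixture of muscle forms thus differed between libraries of the same group. Whether heart or skeletal muscle gave the Myl2 and Myl3 RNA in KO sham 1 and KO AP 2 was not tested.

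**Figure D5:**
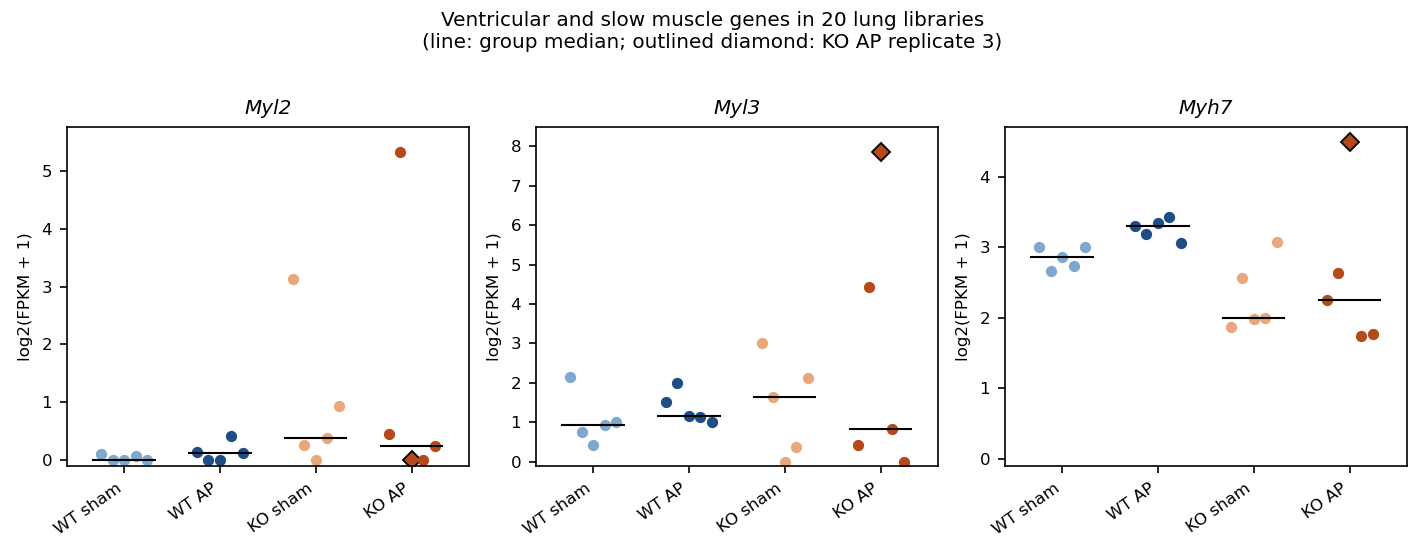
Level of Myl2, Myl3 and Myh7 as log2(FPKM + 1) in 20 lung libraries, by group, with a line at the group median and an outlined diamond for KO AP 3. Myl2 stands out in KO sham 1 and KO AP 2 and is at 0 in KO AP 3, where Myl3 and Myh7 are highest.

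The counts for other gene lists stand beside 55.8% of all genes tested past the threshold between KO and WT with AP and 58.8% after sham. Of 17 sarcomere genes tested, none passed between KO and WT with AP, and after sham Nebl, a nebulin-like protein of the thin filament, alone passed, at -0.38 ± 0.15 (SE, limma adjusted p = 0.0323). Over the 20 libraries, Nebl had a Pearson r of -0.272 with the mean of the tested members. It was 20.6 FPKM in KO AP 3, against a median of 31.4 in the other 19 libraries. Which cells gave its RNA was not tested. The median log2 difference of the 17 sarcomere genes was 0.12 with AP and -0.60 after sham. Tnnc1, the calcium-binding troponin, was 0.41 ± 0.63 with AP (limma adjusted p = 0.594), and Tcap, a titin cap protein, was 0.51 ± 0.91 (limma adjusted p = 0.649). None of the 9 energy supply genes passed in any of the 5 comparisons. Fabp3, the fatty acid carrier of heart muscle, was 223 FPKM in KO AP 3 and 2.05 to 38.9 in the rest.

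Among the 10 calcium handling and conduction genes tested and reported here, 2 were lower in KO with AP and 3 after sham, beside 28.1% and 30.0% of all genes tested. Cacna1c, the pore of the cardiac calcium channel, was 6.45 ± 0.316 FPKM in WT AP and 2.90 ± 0.434 in KO AP (SD, n = 5 each). Its log2 difference was -0.94 ± 0.15 (SE, limma adjusted p = 4.03e-05). Slc8a1, the sodium-calcium exchanger, fell by 0.59 (SE 0.13, limma adjusted p = 0.000903). Atp2a2, the calcium pump that Sln inhibits, was lower after sham by -0.90 ± 0.36 (limma adjusted p = 0.0387). Pln, phospholamban, did not pass, at -0.35 ± 0.77 with AP (SE, limma adjusted p = 0.715). Over the lung libraries, the Pearson r with the mean of the tested members was 0.012 for Cacna1c, 0.225 for Slc8a1 and 0.748 for Atp2a2. In KO AP 3, Cacna1c was 2.3 FPKM and Slc8a1 1.24, against medians of 5.89 and 1.53 in the other libraries. Atp2a2 was 212 FPKM there, against a median of 64.1. Which cells gave the RNA of these genes was not tested.

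Of 12 cardiac transcription factors reported here only 5 passed the filter, and those are also expressed in other lung cells. With AP, 4 were lower in KO and 1 higher, and after sham 4 were lower, beside 55.8% and 58.8% of all genes called in either direction. Mef2a, a muscle transcription factor, was 34.1 ± 3.89 FPKM in WT AP and 11.9 ± 2.21 in KO AP (SD, n = 5 each), a log2 difference of -1.46 ± 0.15 (SE, limma adjusted p = 8.92e-07). Tbx5, a T-box factor of atrium and lung mesenchyme, was 15.2 ± 1.35 and 7.16 ± 1.95 FPKM (SD), and Gata6 14.0 ± 2.55 and 7.55 ± 1.95 FPKM (SD). Srf, serum response factor, was higher in KO with AP by 0.47 ± 0.14 (SE, limma adjusted p = 0.00874). Nkx2-5, Gata4 and Tbx20, core factors of heart muscle, were at most 1.57, 1.5 and 0.757 FPKM, each highest in KO AP 3.

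Lists for other cells and tissues gave their own counts between KO and WT. Of 9 smooth muscle genes tested, 5 were higher and 1 lower in KO with AP, and 4 were higher and 2 lower after sham. Both are near the 55.8% and 58.8% of all genes tested that were called, beside which the counts of the other lists also stand. Tagln, a smooth muscle actin-binding protein, was 72.4 ± 19.2 FPKM in WT AP and 129 ± 35 in KO AP (SD, n = 5 each), while Myh11 was 24.3 ± 1.83 and 13.7 ± 1.53 FPKM. All 5 erythroid genes were lower in KO with AP, with a median log2 difference of -1.94, and none passed after sham, at a median of -0.65. Of 11 lung identity genes, 1 was higher and 4 lower with AP, and 4 were lower after sham. Of 5 mesothelium genes tested, Upk1b was lower with AP and Msln higher after sham. None of 5 skeletal muscle, 6 adipocyte and 3 ventricular genes tested passed in either comparison. Of 8 atrial genes tested, Dkk3 was lower in both and Nppa with AP. The 8 colon identity genes summed to at most 11.5 FPKM in lung, and none was tested. The part of these cell types in the results for the members was not tested.

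The 10 genes most like the members were sought among 13031 genes by Pearson r of log2(FPKM + 1) with the mean of the 9 tested members over the 20 lung libraries, as a description. Mybphl, a myosin-binding protein of atrium, was first with 0.985, and 0.976 without KO AP 3. Fabp3 followed with 0.981, Ckmt2, mitochondrial creatine kinase, with 0.979, and Myoz2, a Z-disc protein, with 0.973. Csrp3, Mb (myoglobin), Eef1a2, Tcap, Cox7a1 and Art1 had between 0.966 and 0.94. All 10 were highest in KO AP 3, and 7 of the 10 were in the lists of heart or striated muscle genes. Their r within groups, after subtracting each group's mean, was 0.957 to 0.983.

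The members differed in how closely they followed their own mean. Myl4, Sln, Tnnt2, Myh6 and Myl7 had Pearson r of 0.961 to 0.978 with the mean that includes them over the 20 libraries. Actc1 had 0.628, and 0.245 over 19 libraries without KO AP 3, while Tnni3 had 0.798 and 0.645. In the same order Nppa had 0.768 and 0.731, and Ryr2 0.821 and 0.763. Within groups, with KO AP 3 included, the r was 0.858 for Actc1, 0.871 for Nppa, 0.804 for Ryr2 and 0.963 for Tnni3. This r does not measure the size of changes, and Tnni3 over Tnnt2 still ran from 0.765 to 3.56 within KO sham. It was not computed without KO AP 3.

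In colon, Myh6 was at most 0.0427 FPKM, Ttn 0.00988, Sln 0.313, Nppa 0.402 and Actc1 1.27 over 19 libraries. Ryr2, also a channel of smooth muscle and neurons, was 0.0493 to 0.613 FPKM. Tnnt2 was 0.865 to 22.7 FPKM in colon, highest in KO sham, and Tnni3 was 0.695 to 4.77. Myl4 was 0.243 to 2.74 FPKM and Myl7 at most 6.22. The tables of the 2 tissues were normalized separately, and no test was made between them.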

How the data were processed

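Per the labels' protocols, mRNA was enriched from Trizol-extracted RNA and sequenced on an Illumina platform. The submitters' processing notes list HISAT2 2.1.0, StringTie 1.3.3b and mm39 but not what each was used for. The authors deposited FPKM, in a table for each tissue with 55357 Ensembl genes, of which 52081 in lung could be given a symbol. Whether strand was counted is not given in the sources used here, so overlapping antisense genes cannot be told apart.

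A gene was tested when 4 or more of the 20 lung libraries reached 1 FPKM, which kept 15978 genes and 9 of 10 members. Log2(FPKM + 1) was modelled with limma 3.58.1 (R 4.3.3, variance trend), with a mean for every group. This scale makes changes of low genes look smaller. The 5 comparisons were adjusted by Benjamini-Hochberg over all genes tested, at a threshold of 0.05. The model was tested on simulated data. Library totals, and whole reads of Myl7, Nppa and Sln, were recovered from the steps of genes with 1 transcript in GENCODE. In every lung library at least 98.5% of such values came out whole within 0.01 read. No count test was run, since genes with several transcripts gave no whole reads. The replicate numbers did not pair the libraries.

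The members and 13 other gene lists were chosen with earlier results of these data known. Named genes are the 10 members, Cd177, the 10 genes most like the members, and list genes drawn from the 4 with the highest mean lung FPKM per list or past the threshold with a group mean of 2 FPKM or more. Bmp10, Irx4, Myh4, Myh8, Ucp1, Nkx2-5, Gata4, Tbx20 and Tnnc1 were named after their values were seen. Some list genes are not reported here and were left out of the counts and sums of their lists. Alternatives were another pseudocount, other filters, TPM and upper quartile scaling, array weights, separate fits, a replicate block and leaving out libraries. Leaving out KO sham 4, KO sham 5 and KO AP 3 together was added after seeing the data. Promoters are from RefSeq (GRCm38.p6), matched by symbol for 9 of 10 members, and Sln had no entry. Python 3.11.15, numpy 2.4.6, pandas 2.3.3 and matplotlib 3.10.9 were used.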

Additional observations from a re-analysis of the deposited data

Results flagged for a closer look

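In 54 groups of 4 or 5 libraries, the highest or lowest library was compared with its nearest neighbour, as a share of the group's range and against Dixon's limit. A library stood apart in 18 cases of 1 gene in 1 group, 17 of them in lung, and these came from 4 libraries. Chance gives about 1 in 20 for a single gene and group, but genes that move together are not independent cases. KO AP 3 stood apart in its group for 9 members. The values there were 424 FPKM for Myh6, 771 for Tnnt2, 520 for Tnni3, 470 for Actc1, 517 for Myl4, 544 for Myl7, 45.8 for Nppa, 4.01 for Ttn and 220 for Sln.

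WT sham 1 stood apart in WT sham for 7 members. The values there were 99.0 FPKM for Myh6, 63.1 for Tnni3, 49.9 for Actc1, 81.0 for Myl4, 41.0 for Nppa, 3.42 for Ryr2 and 17.2 for Sln. WT AP 1 stood apart for Ryr2, at 3.08 FPKM. In colon, WT sham 2 stood apart for Myl7, at 5.06 FPKM, where the next library of its group had 1.62.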

How the results depend on the processing

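Over 396 results for single members under alternatives other than leaving out 1 library, 367 kept their direction and side of the threshold, 10 gained it, 3 lost it and 16 reversed. Leaving out 1 library gave 873 of 900 unchanged in this sense, with 17 reversed. The 900 include libraries outside the groups compared, whose removal cannot move an estimate or its direction, only its adjusted p. The 873 therefore overstate how far directions were put to a test. Actc1 and Nppa passed between KO and WT with AP under every alternative run. Where values moved, the cause was not tested.

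Counts of genes past the threshold moved most. For AP against sham in WT, 13 in the main analysis, there were 1 with no filter, 1 on the TPM scale, 1640 with array weights, 110 with only the groups compared and 35 without the 3 libraries of low correlation. For AP against sham in KO, 2 in the main analysis, there were 5 with no filter, 1 with the filter at 10 libraries, 4 on the TPM scale, 15 with array weights, 0 with only the groups compared and 31 without the 3 libraries. For the genotype difference of the AP response, 0 in the main analysis, there were 1 with a pseudocount of 0.1, 307 with array weights and 1 without the 3 libraries. Leaving out 1 library gave 0 to 20, 1 to 229 and 0 to 2 genes in the same order, the 229 without KO sham 1 and 134 without KO AP 3.

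Same-numbered libraries of 2 groups had deviations correlated at -0.32 to 0.39, over 0.1 in 6 of 30 pairs and best with their own number in 6. With a replicate block, 8 genes passed between AP and sham in WT lung and 1 in KO lung, and no call of a member changed.

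Members past the threshold were 1 with array weights for AP against sham in WT. For KO against WT after sham, 1 in the main analysis, there were 2 with a pseudocount of 0.1, 0 with no filter, 2 on the TPM scale, 2 with array weights, 3 with only the groups compared, 2 without the 3 libraries, and 0 to 3 without 1 library. These were not the same members: Ryr2 was lost and Tnni3 and Actc1 were higher in KO with array weights, and Ryr2 was lost and Actc1 (higher) and Nppa (lower) passed without the 3 libraries.

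With array weights, AP against sham in KO was -0.02 for Myl4 and -0.13 for Myl7, KO against WT was -0.5 for Sln with AP and 0.47 for Myl7 after sham. The genotype difference was then -0.09 for Myh6, -0.75 for Myl4, -1.08 for Myl7 and -0.06 for Sln. For KO against WT with AP, Sln was also -0.14 with a pseudocount of 0.1 and -0.22 on the TPM scale. Without the 3 libraries it was -1.0, Tnnt2 was -0.39, and Nppa for AP against sham in KO was -0.17. The genotype difference was then -0.01 for Tnni3, -0.14 for Myl4 and -0.17 for Myl7.

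Without 1 library, KO against WT with AP ran from -0.84 to 0.55 for Myh6, -0.39 to 0.85 for Tnnt2, -1.44 to 0.21 for Myl4, -0.96 to 0.56 for Myl7, -0.41 to 0.02 for Ryr2 and -1.0 to 0.74 for Sln. Nppa for AP against sham in KO ran from -0.11 to 1.25. The genotype difference ran from -0.37 to 1.29 for Myl4 and from -0.39 to 1.13 for Myl7.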
